A study of Homo sapiens with 6 samples.

Results

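TANK, TBK1 and 8 genes that work with them in NF-κB control were followed through a genome-wide CRISPRi screen for genes that set the amount of an opioid receptor after agonist. The 10 genes were TANK, AZI2, TBKBP1, TBK1, IKBKE, TRAF2, TRAF3, IKBKG, NFKB1 and RELA, out of 18905 genes with a value. Their sgRNAs were found by the gene name that each sgRNA carries in the library. The set was chosen by the phenotypes of this same screen, that of TANK among them, so that every phenotype given for these 10 genes is a description, from which no test is read.

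TANK, AZI2 (also called NAP1) and TBKBP1 (also called SINTBAD) are related adaptor proteins that bind TBK1 and IKKε, the kinase encoded by IKBKE. These kinases phosphorylate IRF3 in the interferon response, and TBK1 also phosphorylates autophagy receptors. TRAF2 and TRAF3 link TNF family receptors to these and other kinases, and TANK was named for binding the TRAF proteins. In the canonical NF-κB pathway, NEMO, encoded by IKBKG, is the regulatory subunit of the IKK complex, which releases the transcription factors made from NFKB1 and RELA from their inhibitors.

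The screen used HEK293 FLP In cells, human embryonic kidney cells made to take up a transgene by recombination, which carried DORmct-APEX2, that is the δ opioid receptor with the C-terminal MOR recycling sequence fused to the peroxidase APEX2. All cells also carried dCas9-KRAB-BFP, an inactive Cas9 with a repressor domain, and the line was expanded from a clonal population. Every cell pool was transduced with 1 of 3 combined sgRNA sublibraries (H17, H23 and H456) and selected with 0.75 μg/ml puromycin. The cells were stimulated with 10 μM DADLE, an opioid peptide, and reacted with 100 μM AUR, which APEX2 turns into a fluorescent product. The top and the bottom quartile of fluorescence were sorted, and the sgRNAs in genomic DNA were counted. The labels give 90 min of DADLE and 8 days of knockdown, and the times in the methods of the study differ from these. The groups were thus the top quartile and the bottom quartile of each sublibrary, both after the same agonist, with 1 library each and 6 in all. There was no replicate and no library without agonist, and the knockdown or the expression of the 10 genes in these cells was not measured here.

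The libraries held 23426498 to 50486627 reads. The median sgRNA had 593 reads in the top and 739 in the bottom library of H17, 1356 in the top and 1154 in the bottom library of H23, and 694 in the top and 1188 in the bottom library of H456. Phenotypes of sgRNAs are on a log2 scale. The share of the analysed reads that an sgRNA took in the top quartile library was divided by its share in the bottom quartile library, and log2 of this ratio was centred on the nontargeting control (NTC) sgRNAs of the same sublibrary, whose median is thus 0. A positive phenotype means more fluorescence, hence more receptor-APEX2 signal, in cells with that sgRNA. The SD over NTC sgRNAs was 0.47 in H17, and it was 0.28 in H23 and 0.30 in H456. The central range of the NTC sgRNAs, from their 5th to their 95th percentile, was −0.76 to 0.48 in H17, −0.45 to 0.41 in H23 and −0.45 to 0.46 in H456. Quartiles were taken from the sample titles, where they are written in full, although each library name carries the other quartile's letter.

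The library listed 120 sgRNAs for the 10 genes, 20 each for TANK and TRAF2 and 10 for each of the others. Of these, 59 had no read in any library, as had 104517 of all 209070 listed sgRNAs. The study counted its coverage out of 5 sgRNAs per gene. Another 60 were analysed, 5 at each transcription start site. The remaining sgRNA, against AZI2, lay outside the sublibrary of that gene. TANK and TRAF2 had a pair of start sites, named P1 and P2 in the library, and the other 8 genes had 1 site. TANK and AZI2 were in H456, TBKBP1, TBK1, IKBKE and IKBKG in H17, and TRAF2, TRAF3, NFKB1 and RELA in H23. The 5 sgRNAs of a site are numbered below in order of position.

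The sites of TANK had different means, so the RefSeq promoters of this gene are shown. TANK lies on the plus strand at chr2:161136963-161236230 in the GRCh38.p14 table of RefSeq, which holds starts of this gene 23465 bp apart. The sequences are the 250 bases before each start, 5′ to 3′ on the plus strand, at chr2:161136713-161136962 for promoter 1 and chr2:161160178-161160427 for promoter 2. Capitals mark each CpG, the dinucleotide CG, which reads alike on both strands.
TANK promoter 1: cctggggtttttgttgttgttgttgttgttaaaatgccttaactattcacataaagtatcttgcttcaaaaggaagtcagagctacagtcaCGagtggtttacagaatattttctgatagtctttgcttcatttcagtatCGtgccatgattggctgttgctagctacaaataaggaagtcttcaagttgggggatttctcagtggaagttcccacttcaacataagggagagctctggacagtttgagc
TANK promoter 2: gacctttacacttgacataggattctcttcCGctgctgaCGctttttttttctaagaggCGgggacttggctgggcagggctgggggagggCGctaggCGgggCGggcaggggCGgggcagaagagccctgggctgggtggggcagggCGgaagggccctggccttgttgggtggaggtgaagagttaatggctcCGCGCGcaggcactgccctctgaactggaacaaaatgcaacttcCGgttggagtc
Promoter 1, upstream, held 2 CpG and 40.4% G or C, and 77.1% of the 35116 RefSeq promoter windows of this length held more CpG. Promoter 2 held 12 CpG and 62.4% G or C, and 46.6% of the windows held more, with a median of 11 over all windows. The other 9 genes all had windows in the table, with 4 to 51 CpG. No source used here names the build behind the sgRNA positions. By order along the strand the P2 sgRNAs, upstream, go with promoter 1 and the P1 sgRNAs with promoter 2, since the medians of their positions lay 23576 bp apart. No position was converted between builds.

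The P2 sgRNAs of TANK gave the highest mean of the 10 genes. In H456 the bottom library was the larger, so that an sgRNA of unchanged share had more reads in the bottom than in the top quartile. The P2 sgRNA 1 had 840 reads in the top and 933 in the bottom quartile, a phenotype of 0.62 (exact 95% interval 0.48 to 0.75). sgRNA 2 had 608 reads in the top and 919 in the bottom quartile, a phenotype of 0.17 (0.02 to 0.32). sgRNA 3 had 707 reads in the top and 855 in the bottom quartile, a phenotype of 0.49 (0.35 to 0.64). These 3 sgRNAs, within 58 bp of each other, were all positive, and the second lay well inside the range of the NTC sgRNAs. sgRNA 4 had 142 reads in the top and 118 in the bottom quartile, a phenotype of 1.03 (0.67 to 1.40). sgRNA 5, 425 bp from the first, had 457 reads in the top and 478 in the bottom quartile, a phenotype of 0.70 (0.51 to 0.89). The strongest sgRNA thus had the fewest reads of the 5. Only counting error enters these intervals, and reads amplified by PCR with no molecular identifiers are not independent molecules.

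Of the 5 sgRNAs at P2, 4 lay above the 95th percentile of the NTC sgRNAs. The mean was 0.60 ± 0.31 (SD over 5 sgRNAs), a ratio of 1.52 to the NTC sgRNAs, at rank 4 of 6954 genes in H456 and rank 13 of 18905 in all. In units of the NTC SD it was 2.03, at rank 8 of all genes. Without sgRNA 4 the mean was 0.496, just under the fold of 0.5 (log2) used to call a gene. This was rank 3 in H456 when every other gene also lost its strongest sgRNA, so it is not comparable to rank 4 above.

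At P1, the sgRNAs of TANK lay on both sides of 0. sgRNA 1 had 1638 reads in the top and 2876 in the bottom quartile (phenotype −0.04), and sgRNA 2 had 559 in the top and 1044 in the bottom quartile (−0.13). sgRNA 3 had 500 reads in the top and 695 in the bottom quartile (0.29), and sgRNA 4 had 244 in the top and 307 in the bottom quartile (0.44). sgRNA 5 had 450 reads in the top and 796 in the bottom quartile (−0.06). Thus 2 sgRNAs were positive and 3 negative, and none left the range of the NTC sgRNAs. The P1 mean was 0.10 ± 0.25 (SD over 5 sgRNAs), which would be rank 1511 of 6954.

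The P2 mean of TANK exceeded the P1 mean by 0.50, but the single values overlapped, with the lowest P2 sgRNA at 0.17 and the highest P1 sgRNA at 0.44. Of the 1390 genes with separate P1 and P2 sites, 52 (3.74%) had a larger difference in size. The site with the lower Mann-Whitney P stands for a gene, and for TANK that choice sets the value, because all 10 sgRNAs together gave 0.35 at rank 73 in H456.

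**Figure D1:**
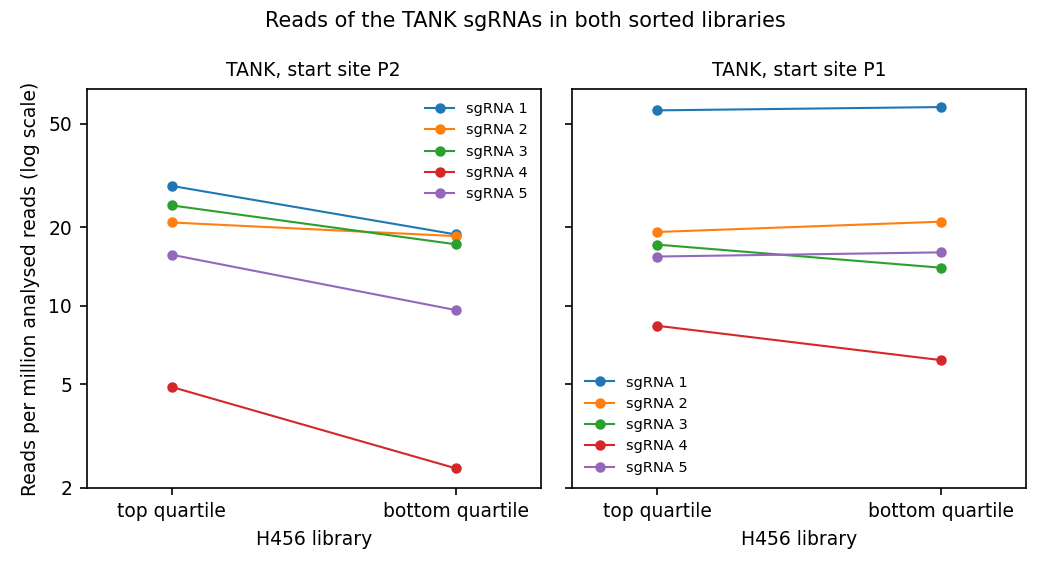
Share of the analysed reads, as RPM (log scale), of each TANK sgRNA in the top and bottom quartile library of H456, with the P2 sgRNAs left and the P1 sgRNAs right and 1 line per sgRNA. All 5 lines at P2 are higher in the top quartile, against 2 of 5 at P1.

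Genes close to TANK in value had more scattered sgRNAs. Directly above it in H456 were SPINT1 at 0.79 ± 1.15, TM2D3 at 0.67 ± 0.41 and ST7L at 0.62 ± 1.00, and directly below it BAIAP3 at 0.60 ± 1.19, LILRA2 at 0.59 ± 0.74 and EVI2A at 0.58 ± 0.42 (SD over 4 sgRNAs for TM2D3 and 5 for the others). The SD of TANK, 0.31, was the lowest of the 7. This is a description only, since TANK and its start site were chosen from these same values. Likeness here is the difference in gene phenotype within 1 pair of libraries.

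The adaptors related to TANK, AZI2 and TBKBP1, had lower values. AZI2 (chr3:28321047-28348824) had sgRNAs on both sides of the NTC range. Its sgRNA 1 had 1317 reads in the top and 2469 in the bottom quartile (−0.14), and sgRNA 2 had 988 in the top and 1072 in the bottom quartile (0.65). sgRNA 3 had 739 reads in the top and 1135 in the bottom quartile (0.15), and sgRNA 4 had 128 in the top and 304 in the bottom quartile (−0.48). sgRNA 5 had 957 reads in the top and 1827 in the bottom quartile (−0.17) and is also listed under ZCWPW2, the neighbouring gene. One sgRNA lay above the NTC range and 1 below it, and the mean was 0.0025 ± 0.42 (SD over 5 sgRNAs), at rank 3348 of 6954, or −0.16 without sgRNA 2. ZCWPW2 had 0.05 ± 0.17 (SD over 5 sgRNAs) in H17.

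All 5 sgRNAs against TBKBP1 (chr17:47694063-47712063) were positive, and none left the NTC range. sgRNA 1 had 1004 reads in the top and 931 in the bottom quartile (0.42), and sgRNA 2 had 84 in the top and 77 in the bottom quartile (0.44). sgRNA 3 had 1216 reads in the top and 1457 in the bottom quartile (0.05), and sgRNA 4 had 1482 in the top and 1743 in the bottom quartile (0.08). sgRNA 5 had 638 reads in the top and 576 in the bottom quartile (0.46). The values fell into 3 near 0.4 to 0.5 and 2 near 0, with a mean of 0.29 ± 0.21 (SD over 5 sgRNAs), the second highest of the 10 genes and rank 211 of 5908 in H17.

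Both kinases bound by these adaptors had means below 0. TBK1 (chr12:64452120-64502114) had sgRNAs close to the NTC median. Its sgRNA 1 had 1005 reads in the top and 1291 in the bottom quartile (−0.05), sgRNA 2 had 985 in the top and 1131 in the bottom quartile (0.11), and sgRNA 3 had 133 in the top and 189 in the bottom quartile (−0.19). sgRNA 4 had 392 reads in the top and 548 in the bottom quartile (−0.17), and sgRNA 5 had 306 in the top and 372 in the bottom quartile (0.03). Positions of the first 3 lie within 4 bp, with sgRNAs 1 and 2 on the minus strand and sgRNA 3 on the plus strand. The mean was −0.05 ± 0.13 (SD over 5 sgRNAs), the lowest spread of the 10 genes, at rank 3935 of 5908.

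IKBKE (chr1:206470476-206496889) had 5 negative sgRNAs, of which 4 were near 0. sgRNA 1 had 324 reads in the top and 434 in the bottom quartile (−0.11), sgRNA 2 had 450 in the top and 575 in the bottom quartile (−0.04), and sgRNA 3 had 490 in the top and 625 in the bottom quartile (−0.04). sgRNA 4 had 86 reads in the top and 177 in the bottom quartile (−0.73), and sgRNA 5 had 411 in the top and 543 in the bottom quartile (−0.09). None left the NTC range. The mean was −0.20 ± 0.30 (SD over 5 sgRNAs), at rank 5191 of 5908, and −0.07 without sgRNA 4, the one with the fewest reads.

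Both TRAF genes were mostly positive. TRAF2 (chr9:136881958-136926607) was represented by P1, where sgRNA 1 had 1101 reads in the top and 764 in the bottom quartile (0.28), and sgRNA 2 had 1009 in the top and 626 in the bottom quartile (0.44). sgRNA 3 had 869 reads in the top and 654 in the bottom quartile (0.16), sgRNA 4 had 448 in the top and 380 in the bottom quartile (−0.01), and sgRNA 5 had 1311 in the top and 895 in the bottom quartile (0.30). At P1, 4 of 5 were positive and 1 lay above the NTC range, with a mean of 0.24 ± 0.17 (SD over 5 sgRNAs) at rank 225 of 6043 in H23. At P2, with a median position 4576 bp away, the sgRNAs ran between −0.06 and 0.29, with 191 to 1016 reads per library and a mean of 0.08 ± 0.14 (SD over 5 sgRNAs). The difference between the sites was 0.16, and 41.2% of the 1390 genes had a larger one. With both sites pooled the value was 0.16.

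TRAF3 (chr14:102777449-102911500), which also restrains the NF-κB-inducing kinase, had 1 sgRNA above the NTC range. This was sgRNA 1, with 2673 reads in the top and 1522 in the bottom quartile (0.57). sgRNA 2 had 2522 reads in the top and 2008 in the bottom quartile (0.08), and sgRNA 3 had 2170 in the top and 1694 in the bottom quartile (0.11). sgRNA 4 had 1204 reads in the top and 798 in the bottom quartile (0.35), and sgRNA 5 had 1777 in the top and 1533 in the bottom quartile (−0.03). The mean was 0.21 ± 0.24 (SD over 5 sgRNAs), at rank 307 of 6043, and 0.13 without sgRNA 1.

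IKBKG (chrX:154541238-154565046) had the least uniform values after AZI2. sgRNA 1 had 248 reads in the top and 230 in the bottom quartile (0.42), sgRNA 2 had 206 in the top and 225 in the bottom quartile (0.19), and sgRNA 3 had 991 in the top and 1278 in the bottom quartile (−0.05). sgRNA 4 had 554 reads in the top and 560 in the bottom quartile (0.30), and sgRNA 5 had 171 in the top and 314 in the bottom quartile (−0.56). All 5 lie within 71 bp, yet they spanned both directions, with a mean of 0.06 ± 0.39 (SD over 5 sgRNAs) at rank 2387 of 5908, or 0.21 without sgRNA 5.

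The NF-κB subunits lay between these genes. NFKB1 (chr4:102501359-102617302), which encodes p105 and p50, had 4 positive sgRNAs. Its sgRNA 1 had 1060 reads in the top and 982 in the bottom quartile (−0.14), sgRNA 2 had 1426 in the top and 969 in the bottom quartile (0.31), and sgRNA 3 had 1262 in the top and 839 in the bottom quartile (0.34). sgRNA 4 had 1235 reads in the top and 893 in the bottom quartile (0.22), and sgRNA 5 had 724 in the top and 582 in the bottom quartile (0.07). None left the NTC range, and the mean was 0.16 ± 0.20 (SD over 5 sgRNAs) at rank 589 of 6043.

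RELA (chr11:65653601-65663857), the transactivating partner of p50, was less uniform. sgRNA 1 had 1042 reads in the top and 993 in the bottom quartile (−0.18), sgRNA 2 had 707 in the top and 411 in the bottom quartile (0.54), and sgRNA 3 had 1320 in the top and 959 in the bottom quartile (0.21). sgRNA 4 had 1162 reads in the top and 979 in the bottom quartile (0.00048), and sgRNA 5 had 1156 in the top and 1168 in the bottom quartile (−0.26). sgRNA 2 alone lay above the NTC range. The mean was 0.06 ± 0.32 (SD over 5 sgRNAs) at rank 1778 of 6043, and it was −0.06 without sgRNA 2, so that its sign rested on this sgRNA.

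**Figure D2:**
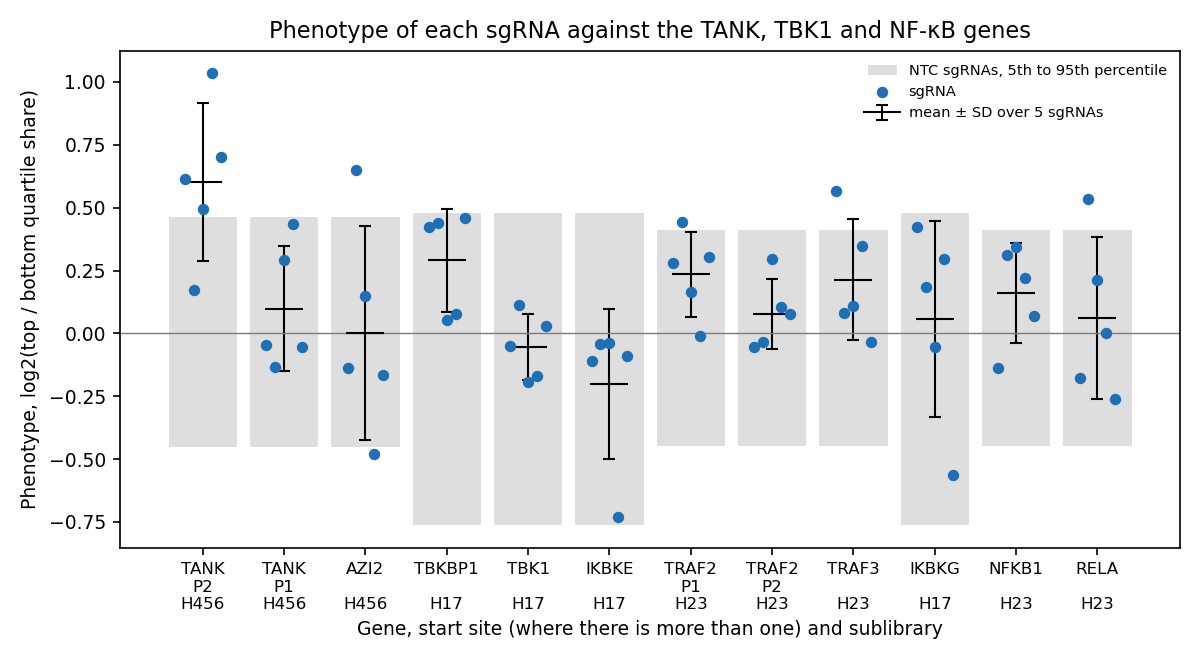
Phenotype (log2 ratio of the shares in the top and the bottom quartile) of each of the 60 sgRNAs, with the mean and SD over the 5 sgRNAs of a start site, and in gray the central range of the NTC sgRNAs (5th to 95th percentile). TANK at P2 has 4 sgRNAs above the gray range, and AZI2, TRAF2 at P1, TRAF3 and RELA have 1 each.

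From the highest to the lowest, the genes ran TANK, TBKBP1, TRAF2, TRAF3, NFKB1, RELA, IKBKG, AZI2, TBK1 and IKBKE. In each of the 9 pairs of neighbours in this order, the difference was smaller than the larger SD over sgRNAs. The widest gap was that of TANK over TBKBP1, 0.31, with SDs of 0.31 for TANK and 0.21 for TBKBP1, and those genes were measured in different sublibraries. In units of the NTC SD of the sublibrary, TRAF2 (0.84) and TRAF3 (0.77) lay above TBKBP1 (0.61). The phenotype was positive in 8 of the 10 genes, with a median of 0.11, against 50.4% of all 18905 genes, whose median was 0.0013. Those 8 include AZI2 at 0.0025 and RELA, which was −0.06 without its strongest sgRNA. The set was chosen by these phenotypes, so nothing is read from this count or median.

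TANK was the 1 gene of the 10 with a phenotype of at least 0.5, which 33 of 18905 genes (0.175%) had, and none of the 10 had −0.5 or less, which 267 genes (1.41%) had. TANK did not reach 0.5 without its strongest sgRNA or with its start sites pooled. Of the 50 sgRNAs at the start sites used, 8 lay above the 95th percentile of the NTC sgRNAs and 1 below the 5th, beside 4.96% above and 5.04% below among all 101305 targeting sgRNAs. Since the set was chosen with these phenotypes known, nothing is read from these counts.

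**Figure D3:**
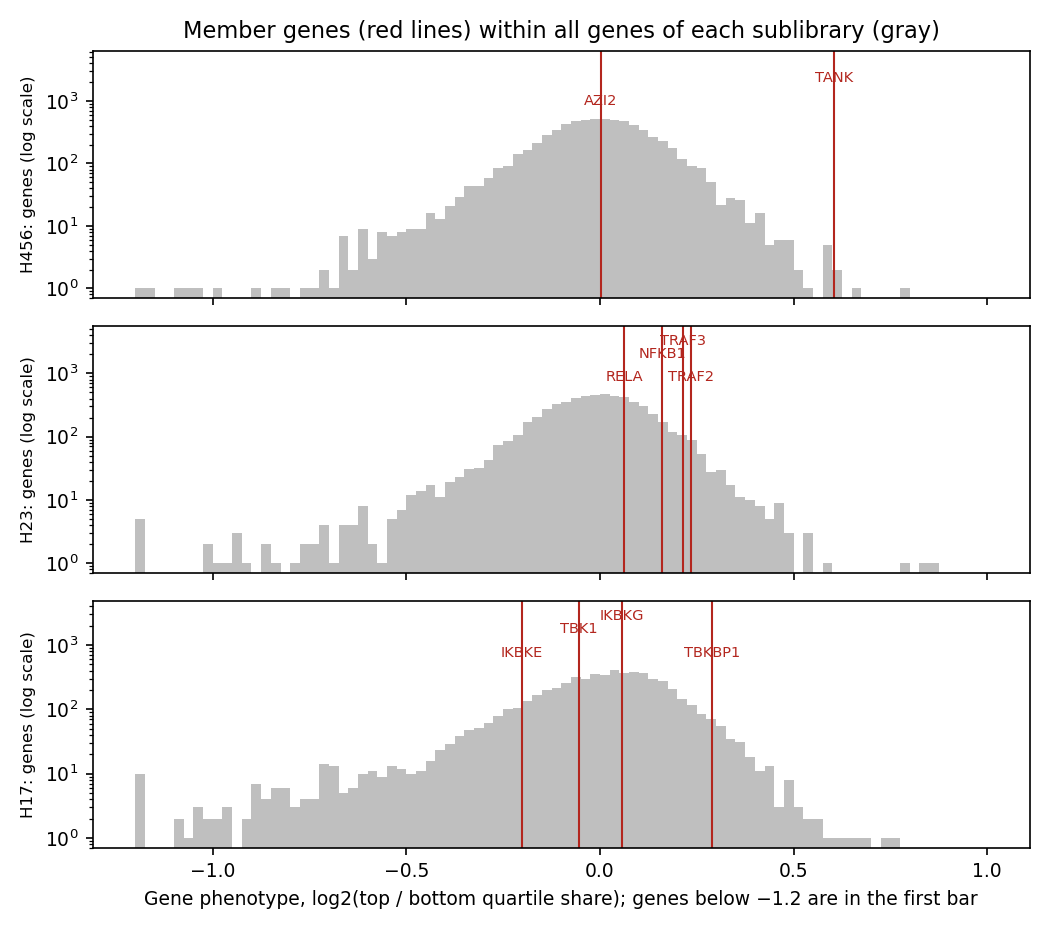
Number of genes (log scale) by gene phenotype in each sublibrary (gray), with the 10 genes as red lines. TANK, at 0.60, lies in the sparse upper tail of H456, whereas TBKBP1, TRAF2, TRAF3 and NFKB1 lie on the upper slope and the others within the bulk or, for IKBKE, on the lower slope.

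Other genes of the pathway, 71 in 6 lists by role, had no value past the fold of 0.5 in either direction. Over all genes, 0.175% had at least 0.5 and 1.41% had −0.5 or less. Of the 71, 33 were positive and 38 negative, with a median of −0.01. By the Mann-Whitney U test (exact, two-sided) of sgRNAs against NTC sgRNAs, with Benjamini-Hochberg adjustment over all genes, none of the 71 passed an adjusted p of 0.05, which 18 positive (0.0952%) and 72 negative (0.381%) genes of the whole screen did. At an unadjusted p of 0.05 there were 3 of the 71, a smaller share than the 1535 of all 18905 genes. The units of that test are sgRNAs within 1 pair of libraries from 1 sort, and no independent culture enters it. Among 12 IKK kinases, NF-κB subunits and IκB proteins, 4 were positive, from NKIRAS2, which slows the breakdown of IκB, at −0.18 to REL at 0.14 (median −0.04). Of 11 genes listed with the TRAF family and the NF-κB-inducing kinase, not all of them TRAF proteins, 6 were positive. Values ran from TRAF1 at −0.10 to MAP3K14, the NF-κB-inducing kinase itself, at 0.26 (median 0.03). Both lists hold close relatives of the 10 genes, and neither had a member near the value of TANK. Of all genes, 0.0635% had a higher value than TANK, so nothing is read from this.

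Upstream, 8 of 18 genes of TNF, IL-1, Toll-like and CARD signalling were positive. Values ran from the scaffold CARD10 at −0.35 to the kinase IRAK1 at 0.28 (median −0.01). Of 9 genes of the TAK1 complex and the linear or K63 ubiquitin ligases, 2 were positive, from the kinase MAP3K7 (TAK1) at −0.13 to UBE2V1, a partner of the ubiquitin-conjugating enzyme UBE2N, at 0.17 (median −0.07). In the lists closest to TBK1 and to TANK in role, values were again small. Of 12 nucleic acid sensors and targets of TBK1, 8 were positive, from OPTN at −0.08 to TAX1BP1 at 0.16 (median 0.01), both autophagy receptors. Of 9 negative regulators of NF-κB, 5 were positive, from COMMD1 at −0.18 to TNIP1 at 0.19 (median 0.03). TNIP1 binds the deubiquitinase A20.

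**Figure D4:**
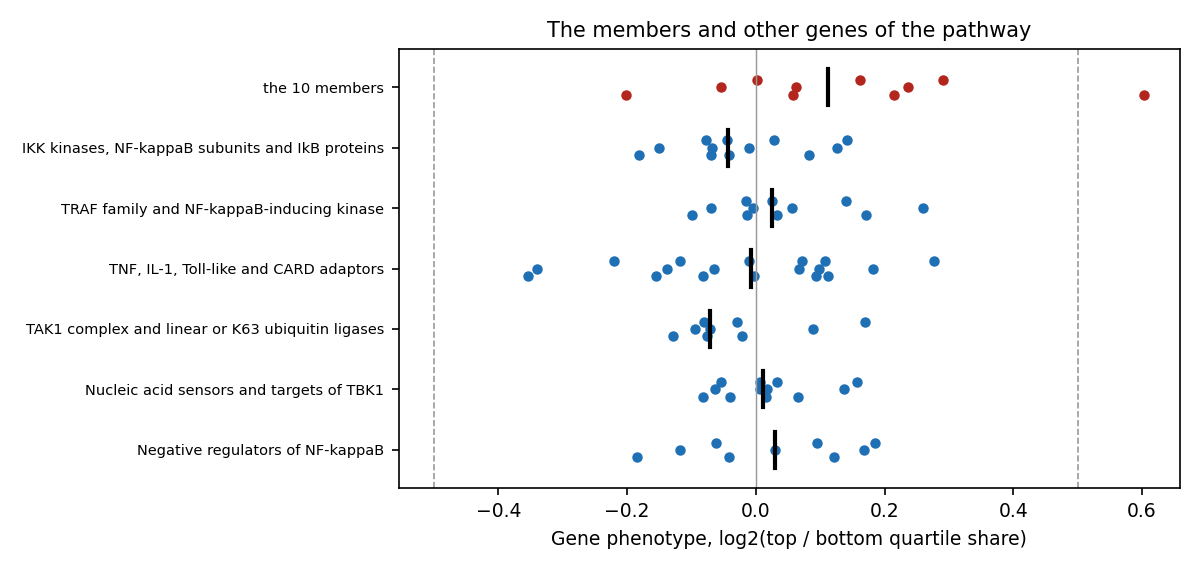
Gene phenotype of the 10 genes (red) and of the 71 other pathway genes (blue) by list, with the median of each as a black bar and the fold of 0.5 in both directions as dashed lines. TANK is the 1 point outside the dashed lines.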

How the data were processed

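Genomic DNA of sorted cells was amplified by the authors with 27 PCR cycles and sequenced, and reads were cropped to 38 bp. ScreenProcessing (version 0.1) gave the deposited counts, which are raw, of 209070 sgRNAs in each of 6 libraries, of which 104553 had reads. No aligner or genome build is given in the sources used here.

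The 10 genes and the pathway lists were chosen with earlier results of these data known. A gene belonged to the sublibrary with most of its sgRNAs at 50 reads or more, and an sgRNA was analysed with at least 10% of its reads there and 50 reads in either library. Analysed reads made up 96.3% to 98.5% of each library. The pseudocount was 1, added to both counts of an sgRNA if either was 0. The gene phenotype was the mean over at least 2 sgRNAs of a start site, and the SD is over sgRNAs. Intervals of single sgRNAs are exact binomial (Clopper-Pearson) 95% intervals of the top share of the reads. A gene was called at a phenotype of 0.5 or more in size. Exact two-sided Mann-Whitney U tests against NTC sgRNAs, with Benjamini-Hochberg adjustment over 18905 genes, served only for counts and to choose between start sites. The counts were over all genes, the pathway lists and the 10 genes. No such test of the 10 genes is read, since it would use the values that chose them. With 1 library per group there is no test over samples. Named were all 10 genes, the highest and lowest gene of each list and any past a call, and the 3 genes above and below TANK in H456. ZCWPW2 falls outside that rule and was named as the neighbour of AZI2. Promoters came from the RefSeq table of GRCh38.p14.

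Alternatives were other read minimums, pseudocounts, centring, gene values, start sites, folds and olfactory receptor sgRNAs as comparison set. Scripts were tested on simulated data. Python 3.11.15, numpy 2.4.6, pandas 2.3.3 and scipy 1.17.1 were used.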

Additional observations from a re-analysis of the deposited data

Results flagged for a closer look

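Reads of the analysed sgRNAs also appeared in the 4 libraries of the other sublibraries, which no phenotype used. They numbered 82 for TANK, 64 for AZI2, 35 for TBKBP1, 37 for TBK1, 25 for IKBKE, 71 for TRAF2, 72 for TRAF3, 29 for IKBKG, 47 for NFKB1 and 35 for RELA. These were 0.352% to 0.604% of the reads of each gene, and the same share was 0.517% to 0.640% for the NTC sgRNAs. The AZI2 sgRNA outside its sublibrary had 682 reads in the top and 813 in the bottom quartile library of H17, where ZCWPW2, under which it is also listed, was assigned. Its phenotype there was 0.06, at the 59.3 percentile of the NTC sgRNAs of H17.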

How the results depend on the processing

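TANK stayed positive in all 10 settings tried for gene values, from 0.35 to 0.78. It was 0.78 with the mean of the 3 strongest sgRNAs, 0.50 without the strongest sgRNA and 0.35 with start sites pooled. Of the 10 genes, 0 passed the fold without the strongest sgRNA and 0 with sites pooled. The planned count of the 10 genes past the exact Mann-Whitney test is not read, since it uses the values that chose them. It was 1 (TANK, whose start site was itself chosen by this test), beside 18 positive (0.0952%) and 72 negative (0.381%) of all 18905 genes. The count was 0 without the strongest sgRNA, 0 with sites pooled and 0 with olfactory receptor sgRNAs for comparison. With at least 1 read as the minimum TANK ranked 38 in H456. The 7 other genes kept their sign in all 10 settings, while AZI2 ran from −0.16 to 0.01 and RELA from −0.06 to 0.16. With the 3 strongest sgRNAs, 1 pathway gene, CARD10 (−0.58), passed the fold.

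Over all genes, the 33 at 0.5 or more became 126 with a minimum of 1 read, 16 with 100 reads, 17 with 50 reads in both libraries, 302 with the 3 strongest sgRNAs, 4 without the strongest, 126 at a fold of 0.4 and 13 at 0.6. The 267 at −0.5 or less became 155 with the median over sgRNAs, 748 with the 3 strongest, 73 without the strongest and 428 at a fold of 0.4. No paired analysis was possible because each quartile of a sublibrary had 1 library. Variation between sorts was not measured, and the depth of the rarer sgRNAs, such as TANK P2 sgRNA 4, limits their single values.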
